A study of Rattus norvegicus with 90 samples.

Results

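The 10 libraries described here came from Sprague-Dawley rat cardiomyocytes exposed for 9 h to thioacetamide-S-oxide, 5 at the high dose (1.5 mM) and 5 at the low dose (0.5 mM). They were chosen by their sample labels alone, out of 90 libraries of the series and 30 of cardiomyocytes. The cardiomyocyte groups were of 1 strain and given as heart tissue, with no genotype in the labels, and by their labels they differed in the agent, its dose and the exposure time. The 5 vehicle libraries of cardiomyocytes at 9 h served as the background, and the 24 h libraries of the same cells and the 9 h libraries of renal tube epithelial cells (kidney) and primary hepatocytes (liver) of the same strain were used for comparison. Hepatocytes received 0.025 mM as the low and 0.125 mM as the high dose. Renal cells received 0.125 mM and 0.5 mM, so their high dose equals the low dose of the cardiomyocytes. The labels do not say whether the 5 libraries of a group came from separate cultures or animals, so the p-values measure the spread between these libraries, which may be technical. The comparison asks how the response of these cells changes between the low and the high dose.

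Thioacetamide is a classical liver toxicant that is harmful only after oxidation. Microsomal monooxygenases first form thioacetamide-S-oxide, and a further oxidation gives a reactive di-oxide that binds covalently to proteins and lipids. Cardiomyocytes are the contractile cells of the heart muscle, and adding the S-oxide directly bypasses the first of these steps. In many cells a chemical that reacts with proteins raises transcripts of antioxidant and protein-folding genes and lowers others, but such gene groups could not be read here. The transcripts carry Ensembl identifiers (ENSRNOT numbers), no table at hand pairs them with genes, and 0 were matched. The results are therefore given per transcript, the cardiomyocyte identity of the cells could not be checked against marker genes, and no sequence could be printed for the named transcripts. Transcripts of 1 gene are therefore counted separately.

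Values are estimated counts per transcript. A level is given in CPM, the counts of a transcript per 1000000 transcript counts of its library after TMM scaling, and levels are compared between libraries, not between transcripts. The low-dose libraries held from 17494079 to 61897142 estimated counts and the high-dose libraries from 42937709 to 46645482, against 19467515 to 27585600 in the vehicle libraries. Low-dose library MS-158 stood apart. It held the fewest counts, and 19177 transcripts had at least 1 count in it, against 23191 to 24236 in the other low-dose libraries and 23451 to 23738 in the high-dose libraries. The 100 most abundant transcripts took 46.0% of its transcript counts, against 24.99% to 25.80% in the other low-dose libraries. Its median Spearman correlation with its own group was 0.882, against at least 0.984 for the other 14 libraries at 9 h with theirs. Of 18393 transcripts tested, it was the highest or the lowest of the 5 low-dose libraries in 88.0%. The main counts and overlaps are given with and without this library. At 24 h, libraries MS-172 (low dose) and MS-178 (high dose) also lay far from their groups, and library MS-174, labelled low dose, lay closer to the vehicle libraries over the transcripts that differed between the doses at 9 h. Over 1401 of the transcripts that differed between the doses at 9 h, the mean absolute log2 distance of MS-174 was 0.356 from the vehicle median and 0.515 from the median of the other low-dose libraries at 24 h. The other 29 of the 30 cardiomyocyte libraries were nearest to the group of their label on this measure. These transcripts were chosen on the low- and high-dose libraries of 9 h by their labels, so for those 10 the result is largely fixed by the choice. Over all 18632 transcripts compared, MS-174 lay at 0.514 from the vehicle and 0.459 from the low-dose median, nearer to its own label, and 28 of the 30 libraries were nearest to the group of their label. The exceptions were vehicle library MS-168 and low-dose library MS-173, both of 24 h.

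**Figure D1:**
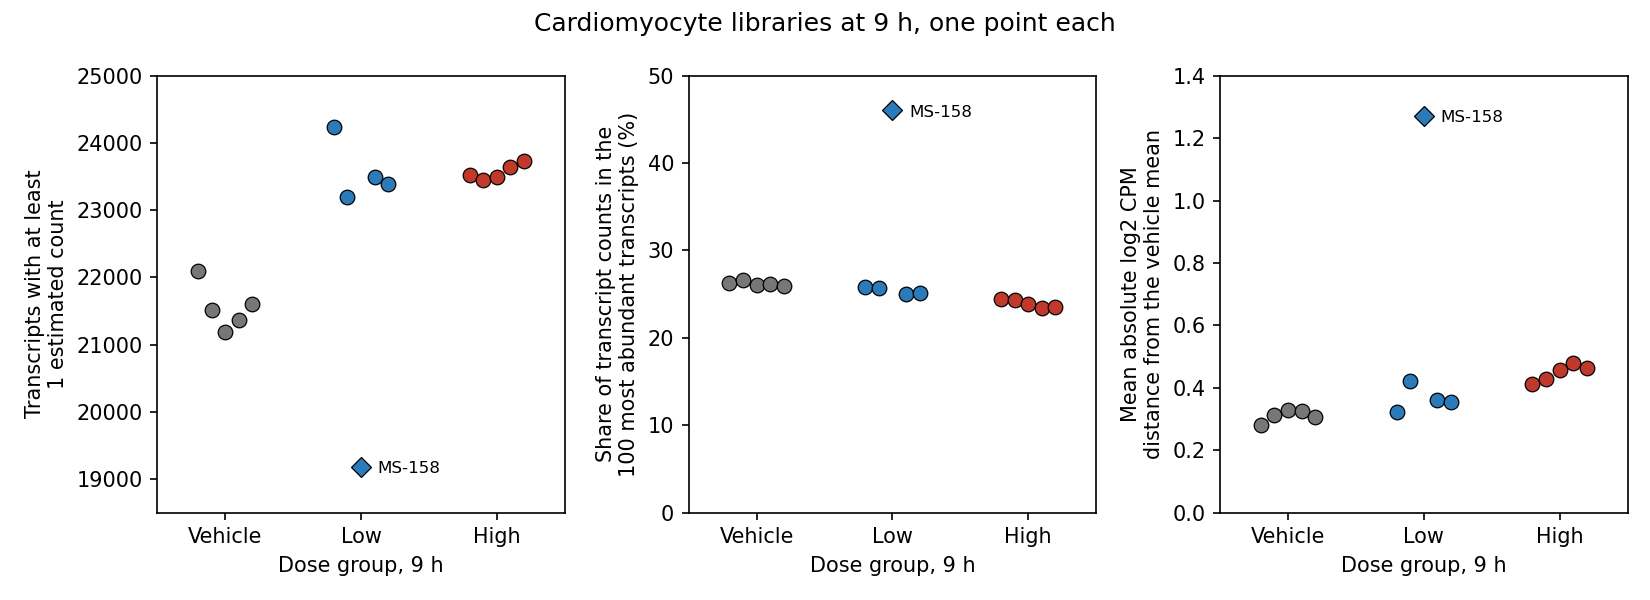
Each point is 1 cardiomyocyte library at 9 h, grouped by dose. The axes give the number of transcripts with at least 1 estimated count (axis not from 0), the share of transcript counts in the 100 most abundant transcripts, and the mean absolute log2 CPM distance from the vehicle mean. Library MS-158 (diamond) lies apart on all 3 measures, at 19177 transcripts, 46.0% and 1.27, and the high-dose libraries lie close together.

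Between the doses at 9 h, 1414 of 18393 transcripts tested differed (7.69%). Of these, 599 (3.26%) were higher at the high dose and 815 (4.43%) were lower. Such a transcript, called a DEG here, had a Benjamini-Hochberg adjusted p of at most 0.05 in edgeR's quasi-likelihood test and had changed by 0.41 or more on the natural-log scale. An unadjusted p under 0.05 was reached by 4942 transcripts (26.9%). Without MS-158, 2078 of 18652 transcripts were DEGs (11.1%), 876 higher (4.7%) and 1202 lower (6.44%). The calls overlapped largely: 1267 transcripts were DEGs in both fits, 543 higher and 724 lower, with 0 in opposite directions. These were 89.6% of the calls with all libraries and 60.97% of those without MS-158. The split between directions was another with limma on the deposited TPM, which changed the test, the unit and the scaling together. On log2(TPM + 1), 532 of 691 DEGs were higher, or 77.0%, against 42.4% with the counts. With limma on log2(CPM + 0.5), 593 of 1275 DEGs were higher, or 46.5%.

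The changes in both directions were of like size. The median log2 fold change was 0.996 for the higher DEGs and -0.975 for the lower DEGs, beside -0.01 over all transcripts tested. Among the higher DEGs, 296 changed by at least 2-fold, 79 by at least 4-fold and 24 by at least 8-fold. Among the lower DEGs the corresponding numbers were 390, 48 and 11, so among the DEGs the changes of 4-fold or more were mostly increases. Most of the tested transcripts that changed by 4-fold or more were not DEGs, and the direction of those was not counted. The lower DEGs were of lower abundance. Their median was 3.81 TPM, against 5.77 TPM for the higher DEGs and 8.48 TPM for all transcripts tested. Among the 1312 transcripts with a mean of at least 100 TPM, 2.67% were higher DEGs and 1.60% were lower DEGs. Among the 2991 transcripts with a mean under 1 TPM, 4.38% were higher and 6.22% were lower. Called shares also rose with length, from 4.36% of transcripts under 1000 bases to 9.75% of those of at least 4000 bases. The test used counts, of which a longer transcript has more at equal TPM, and length, level and counts were not separated. The files also hold genomic intervals, and 307 of 8884 of these were called between the doses by the same test (3.46%), or 702 of 9380 without MS-158 (7.48%). The share was 1.47%, 1.53%, 1.72% and 2.09% of those tested without MS-165, MS-164, MS-163 and MS-156, and 2.14% (199 of 9281) when scaled by the counts of the transcripts. With DESeq2 it was 5.46%. Of the called intervals 56.0% were higher with their own scaling and 48.7% with that of the transcripts. A transcript that shares sequence with another receives fractions of reads, and its estimate then depends on how the reads were divided. Estimated counts were whole in all 10 libraries, to within 0.01, for 49.4% of the higher and 48.7% of the lower DEGs, and for 40.2% of all transcripts tested.

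**Figure D2:**
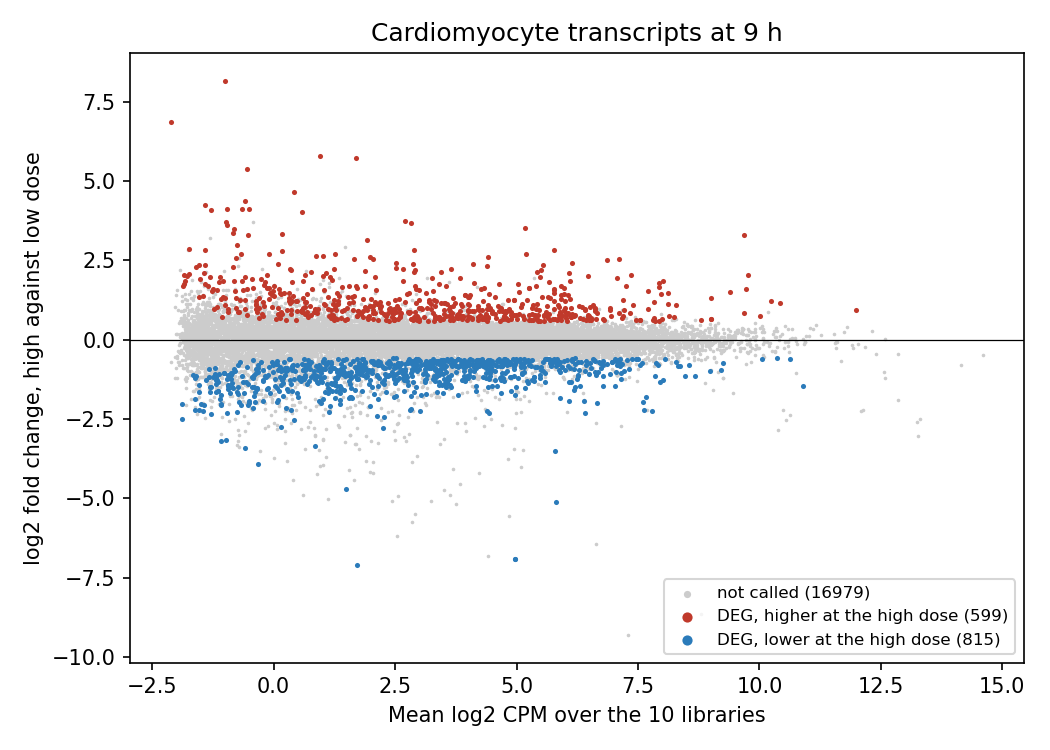
Each point is 1 of the 18393 transcripts tested, with its mean log2 CPM over the 10 libraries on the horizontal axis and its log2 fold change (high against low dose, 9 h) on the vertical axis. The 599 DEGs that were higher at the high dose are red, the 815 that were lower are blue, and the others are grey.

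The groups did not overlap in most DEGs. In 574 of the 599 higher DEGs (95.8%) every high-dose library was above every low-dose library, and in 686 of the 815 lower DEGs (84.2%) every high-dose library was below. Over all transcripts tested, the doses did not overlap in 20.6%. With MS-158 left out of the low-dose group, the doses did not overlap in 587 of the higher and 787 of the lower DEGs, and in 6255 of all 18393 transcripts tested. The DEGs were called on these same values, so the high shares among them are a description.

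The 10 increases described first had the largest rise among the 298 higher DEGs whose mean log2 CPM was 3 or more and whose values did not overlap between the doses. The largest of them were about 10-fold. ENSRNOT00000013133, a transcript of 888 bases, was at 3.26, 5.94, 5.48, 6.51 and 6.72 CPM in the low-dose libraries. In the high-dose libraries it was at 51.0, 59.5, 66.0, 75.5 and 72.6 CPM. The vehicle libraries averaged 1.55 ± 0.385 CPM (SD, n = 5), so this transcript stood in order of dose, with wide gaps between the 3 groups. Its log2 fold change between the doses was 3.53 ± 0.21 (SE), an 11.6-fold rise (edgeR adjusted p = 2.1e-05).

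ENSRNOT00000013073 (993 bases) was the most abundant of the 10. The low-dose libraries held 67.13, 171.3, 173.1, 161.2 and 153.97 CPM, with MS-156 well below the other 4. The high-dose libraries held 1219, 1281, 1453, 1685 and 1629 CPM, and every one of them was more than 7 times the highest low-dose value. The vehicle mean was 36.3 ± 1.23 CPM (SD, n = 5). The log2 fold change was 3.31 ± 0.26 (edgeR adjusted p = 6.7e-05), or 9.91-fold. None of the estimated counts of ENSRNOT00000013133 and only 1 of the 10 of ENSRNOT00000013073 were whole, so reads of both were shared with other targets.

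ENSRNOT00000018549 (1623 bases), with whole counts in all 10 libraries, rose from 9.20, 14.2, 5.14, 19.3 and 16.9 CPM at the low dose to 85.5, 84.7, 83.6, 107 and 107 CPM at the high dose. Its low value in MS-158 widened the low-dose group, and the log2 fold change was 2.84 ± 0.30 with that library and 2.66 ± 0.20 without it. ENSRNOT00000066509 (7939 bases) was at 3.48 to 15.0 CPM at the low dose, with the highest value in MS-158, and between 59.4 and 65.3 CPM at the high dose. The high-dose libraries differed little from each other in this transcript, and its log2 fold change was 2.71 ± 0.32. ENSRNOT00000013661 (894 bases), also with whole counts throughout, was at 2.74 to 7.38 CPM and at 26.6 to 29.4 CPM, a log2 fold change of 2.38 ± 0.27. In these 3 transcripts the low-dose libraries varied more, relative to their level, than the high-dose libraries.

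The other 5 of the 10 largest increases had log2 fold changes from 2.35 to 2.59. ENSRNOT00000032185 and ENSRNOT00000044944 varied among the high-dose libraries, from 19.8 to 52.8 CPM in the first and from 150.6 to 325.4 CPM in the second, and libraries MS-161 and MS-162 were the lowest in both. ENSRNOT00000014317 behaved likewise, at 154.8 and 157.4 CPM in these 2 libraries and 202.1 to 227.1 CPM in the other 3. ENSRNOT00000005228 went the other way among the high-dose libraries, from 128.3 CPM in MS-161 to 104.5 CPM in MS-165, against 13.6 to 26.2 CPM at the low dose. ENSRNOT00000020225 was nearly level, at 72.4 to 80.2 CPM, against 7.56 to 20.1 CPM. All 10 were also DEGs without MS-158, with log2 fold changes from 2.23 to 3.55. In all 10, MS-156 had the lowest or the next lowest value of the low-dose libraries.

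The 10 decreases were chosen in the same way from 326 lower DEGs. ENSRNOT00000018447 (4475 bases) was at 119.1, 94.6, 94.5, 92.8 and 93.8 CPM in the low-dose libraries. In the high-dose libraries it was at 23.4, 12.9, 3.91, 1.92 and 1.91 CPM. The high-dose values were widely spread, with MS-161 highest and MS-164 and MS-165 lowest, and stayed below every low-dose value. The vehicle mean, 54.1 ± 7.98 CPM (SD, n = 5), lay between the doses. The log2 fold change was -3.50 ± 0.70 (edgeR adjusted p = 0.0085), and its counts were not whole in any library.

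The same order of the high-dose libraries recurred in the abundant decreases. ENSRNOT00000009233 (2420 bases) was at 438, 308, 323, 346 and 368 CPM at the low dose. At the high dose it was at 142.2 CPM in MS-161 and at 38.9 to 59.0 CPM in MS-163, MS-164 and MS-165. ENSRNOT00000023554 (3220 bases), with whole counts in all 10 libraries, was at 366, 294, 329, 286 and 300 CPM and at 108, 83.4, 56.1, 42.8 and 47.1 CPM. Their log2 fold changes were -2.24 ± 0.35 and -2.23 ± 0.25 (edgeR adjusted p = 0.0022 and 0.00044). In both, MS-161 lay highest and MS-164 lowest of the high-dose libraries, and the low-dose level was close to that of vehicle, at 341 ± 24.0 and 289 ± 8.89 CPM (SD, n = 5). ENSRNOT00000009985, ENSRNOT00000012883, ENSRNOT00000022389, ENSRNOT00000078979 and ENSRNOT00000033408 also had their highest high-dose value in MS-161 and their lowest in MS-164. Their log2 fold changes were between -1.95 and -2.32. MS-158 moved 4 of these 5 away from the other low-dose libraries, upward in ENSRNOT00000022389 (225 CPM against a mean of 113.4 in the other 4) and ENSRNOT00000012883 (228 against 136.7), and downward in ENSRNOT00000078979 (19.6 against 37.3) and ENSRNOT00000033408 (50.1 against 119.04).

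The remaining 2 of the 10 decreases did not show this spread. ENSRNOT00000014229 (1678 bases) was at 35.6, 32.7, 46.9, 27.9 and 30.2 CPM at the low dose and at 7.34, 7.12, 7.88, 6.09 and 6.87 CPM at the high dose. Its log2 fold change was -2.31 ± 0.16 (edgeR adjusted p = 3.3e-05). ENSRNOT00000017948 (2536 bases) was at 9.68 to 17.0 CPM and at 2.33 to 3.08 CPM, a log2 fold change of -2.26 ± 0.15 (edgeR adjusted p = 3.3e-05). Both had whole counts in all 10 libraries, and in both the vehicle libraries lay between the doses, at 19.4 ± 1.07 and 7.16 ± 1.17 CPM (SD, n = 5). All 10 decreases were also DEGs without MS-158.

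**Figure D3:**
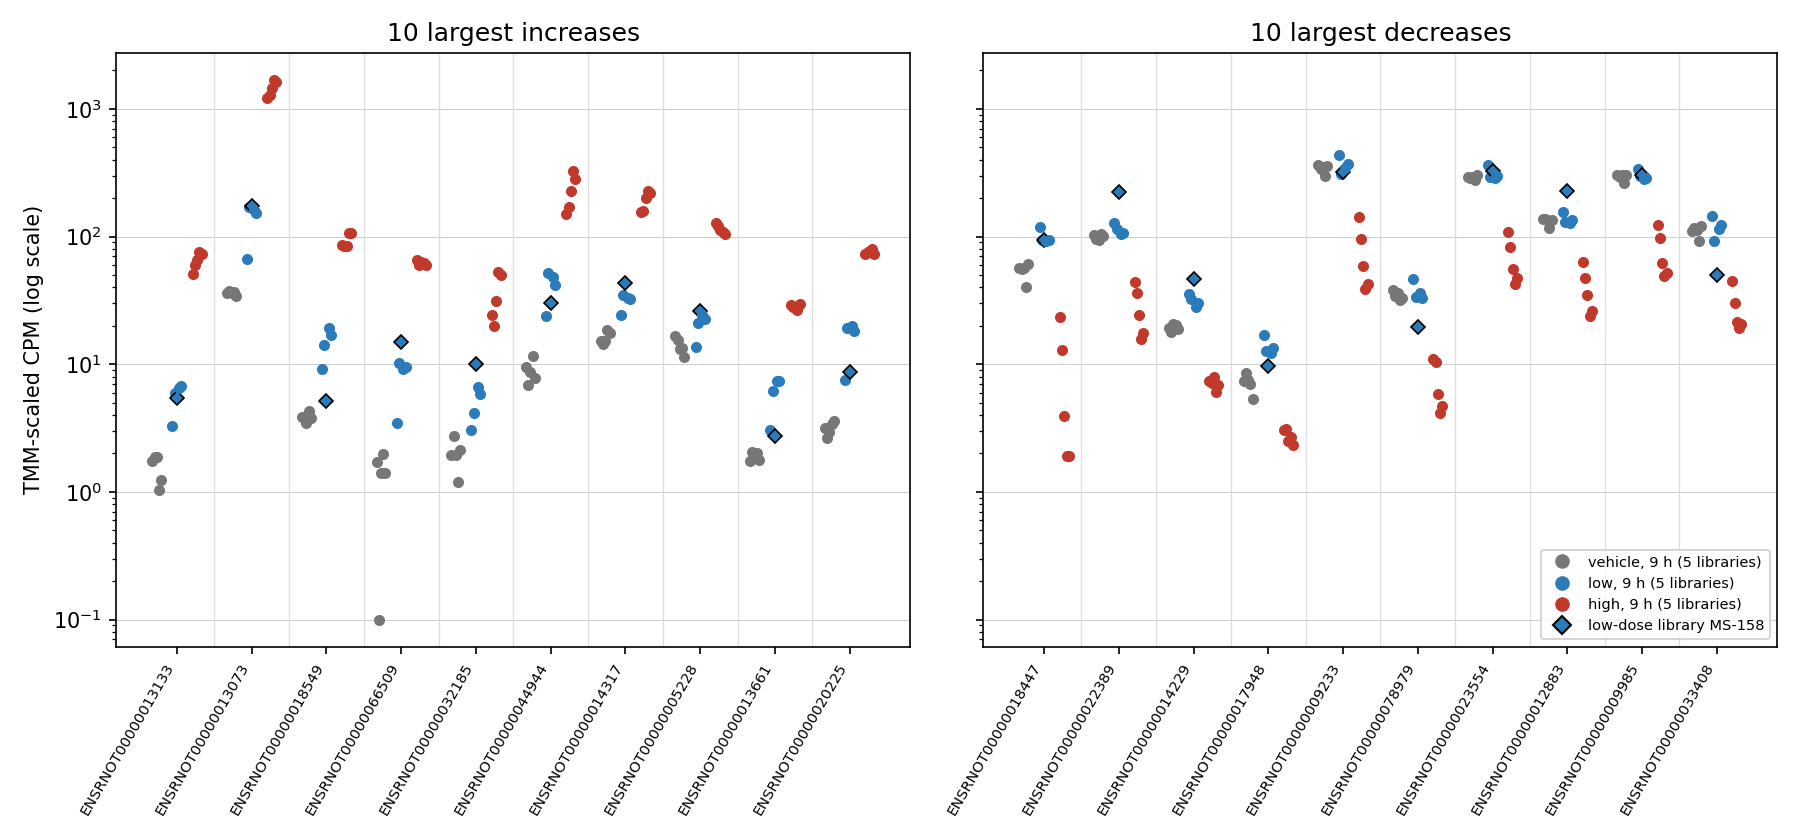
Levels of the 10 transcripts with the largest increase (left) and the 10 with the largest decrease (right), in TMM-scaled CPM on a log axis, 1 point per library at 9 h (vehicle grey, low dose blue, high dose red, MS-158 a diamond, 1 vehicle value of 0 drawn at 0.1). The doses do not overlap in any of the 20, which the choice of the transcripts required, and in 8 of the 10 decreases the highest high-dose point is MS-161, the first from the left.

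The most abundant DEGs changed less. ENSRNOT00000030919 (830 bases) rose from 2647, 2812, 2280, 2949 and 2933 CPM to 5084, 5164, 5158, 5237 and 5327 CPM, a log2 fold change of 0.92 ± 0.08 (edgeR adjusted p = 8.0e-05). The 5 high-dose libraries lay close together, and the vehicle level, 2472 ± 59.8 CPM (SD, n = 5), was close to that of the low dose. ENSRNOT00000013613 (3430 bases) rose most among the 5 abundant increases, from 215 to 416 CPM at the low dose to 1329 to 1420 CPM at the high dose, with a log2 fold change of 2.04 ± 0.18. ENSRNOT00000024601 and ENSRNOT00000021862 had log2 fold changes of 1.21 ± 0.16 and 0.76 ± 0.11. ENSRNOT00000001916 (3063 bases) was at 736, 837, 935, 875 and 733 CPM at the low dose and at 1796, 1836, 1865, 1953 and 1830 CPM at the high dose. The vehicle libraries lay between, at 1409 ± 53.5 CPM (SD, n = 5), so that this transcript was lower than vehicle at the low dose and higher at the high dose. Its log2 fold changes were -0.76 ± 0.09 for low dose against vehicle and 0.40 ± 0.03 for high dose against vehicle (edgeR adjusted p = 0.0020 and 1.3e-06), the second under the fold required of a DEG.

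Among the most abundant decreases, ENSRNOT00000075397 (5046 bases) was at 3235, 2630, 2236, 2717 and 2756 CPM at the low dose and at 1798, 1207, 743, 560 and 603 CPM at the high dose. MS-161 again lay nearest to the low dose, and the log2 fold change was -1.47 ± 0.31 (edgeR adjusted p = 0.011). ENSRNOT00000077924, ENSRNOT00000026783 and ENSRNOT00000083156 had log2 fold changes from -0.60 to -0.73, near the smallest that a DEG could have. ENSRNOT00000081355 was at 2006 CPM in MS-158 and at 1351 to 1499 CPM in the other low-dose libraries, against 998 to 1059 CPM at the high dose. Without MS-158 its log2 fold change of -0.59 became -0.46 ± 0.04, which is no longer a DEG by the fold required.

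The order of the high-dose libraries held across the DEG list. Of the 815 lower DEGs, MS-161 had the highest high-dose value in 360 (44.2%) and MS-164 the lowest in 390 (47.9%). Over all transcripts tested these shares were 23.8% and 24.6%. Of the 599 higher DEGs, MS-164 had the highest value in 246 (41.1%) and MS-161 the lowest in 194 (32.4%), against 19.1% and 20.5% over all transcripts tested. So MS-161 was more often nearest to the low dose, and MS-164 more often farthest from it, in both directions. The median coefficient of variation among the high-dose libraries was 15.6% in the lower DEGs and 9.39% in the higher DEGs, beside 7.96% over all transcripts tested. In the vehicle libraries it was 10.6%, 11.7% and 9.17%. Among the DEGs called without MS-158 the same libraries led. MS-161 was highest in 43.7% and MS-164 lowest in 41.5% of the 1202 lower DEGs, and MS-164 was highest in 38.9% and MS-161 lowest in 33.2% of the 876 higher DEGs. Over all transcripts tested in that fit, the shares were 23.7%, 24.4%, 19.1% and 20.4%. The estimated counts of MS-161 and MS-164 were 46276777 and 43295591, their TMM factors 1.057 and 1.101, and the shares of their 100 most abundant transcripts 24.5% and 23.5%. The part of these measures in the order was not tested.

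At the low dose, MS-156 had the lowest low-dose value in 24.7% of the higher DEGs and the highest in 28.3% of the lower DEGs, against 12.98% and 20.4% over all transcripts tested. For MS-158 the shares were 54.6% and 48.5% in the DEGs, against 51.0% and 36.2% over all transcripts tested. Among the DEGs called without MS-158, MS-156 was the lowest of the 4 low-dose libraries in 43.04% of the higher and the highest in 46.3% of the lower DEGs, against 22.6% and 27.7% over all transcripts tested in that fit. MS-156 was the deepest of the libraries at 9 h, with 61897142 estimated counts.

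Summed over the list, the 599 higher DEGs took 17390, 20409, 16389, 20668 and 20165 CPM in the low-dose libraries and 39476, 39520, 40490, 42774 and 42074 CPM in the high-dose libraries. The 815 lower DEGs took 36197, 33384, 38795, 32203 and 32800 CPM and 21422, 19764, 17413, 15557 and 16234 CPM. The lists were chosen on these libraries, so this is a description of their size. In libraries that had no part in the choice, the vehicle libraries at 9 h averaged 17216 ± 223 CPM for the higher and 32415 ± 586 CPM for the lower list (SD, n = 5). For the higher list MS-157, MS-159 and MS-160 lay above all 5 vehicle libraries, which held 17074 to 17598 CPM, MS-156 lay within that range and MS-158 below it. For the lower list MS-156, MS-157 and MS-158 lay above the vehicle range of 31433 to 32904 CPM, and the other 2 lay within it. At 24 h the higher list took 15086 ± 454, 21001 ± 4399 and 39137 ± 744 CPM in vehicle, low-dose and high-dose libraries, and the lower list 49472 ± 584, 46294 ± 3655 and 26884 ± 2761 CPM (SD, n = 5). Of the low-dose libraries at 24 h, MS-174 was at 14508 CPM for the higher list, within the vehicle range of 14437 to 15527, and the other 4 were at 18341 to 24384. For the lower list it was at 51402 CPM, above all 5 vehicle libraries, which held 48898 to 50193. The 876 higher DEGs called without MS-158 took 21672 ± 1760 CPM in the 4 low-dose libraries left at 9 h (SD, n = 4) and 44892 ± 1699 CPM in the high-dose libraries, and the 1202 lower DEGs 43141 ± 4462 and 21600 ± 4408 CPM. In the vehicle libraries at 9 h these lists took 18591 ± 184.3 and 42054 ± 3033 CPM.

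**Figure D4:**
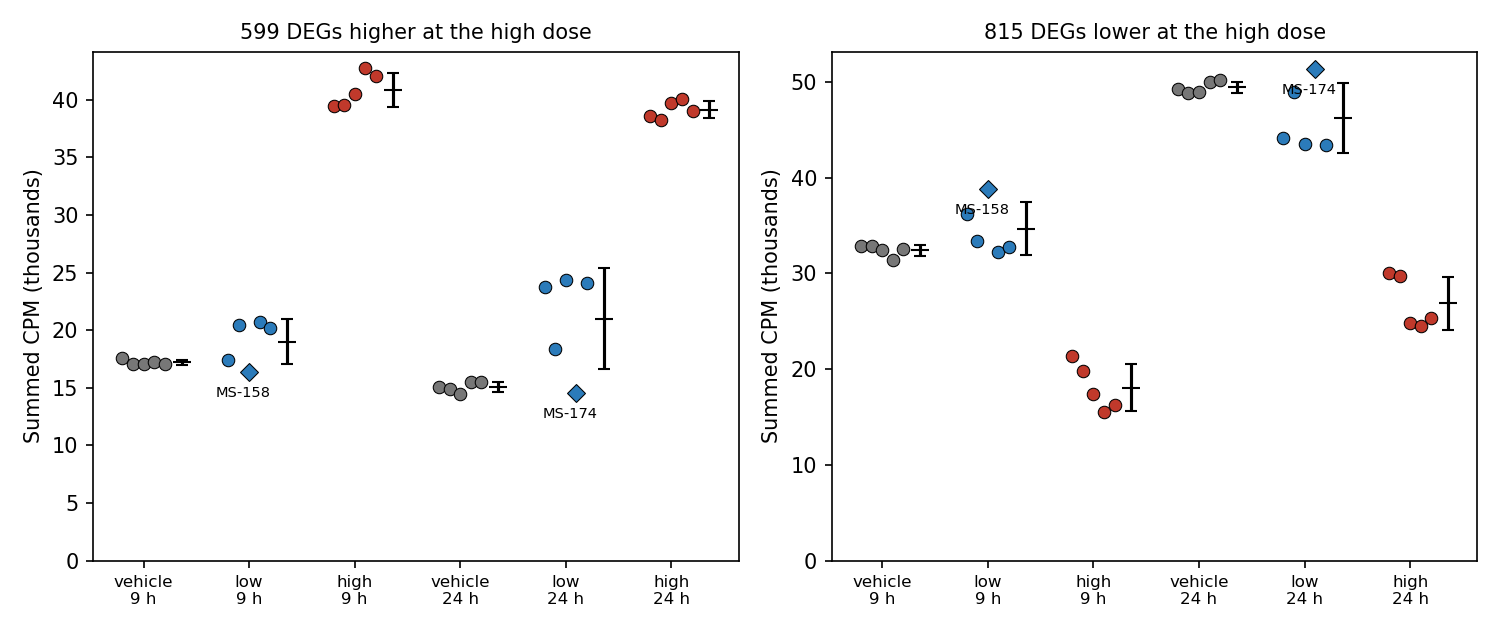
Summed CPM, in units of 1000 CPM, of the 599 higher (left) and the 815 lower DEGs (right) in each of the 30 cardiomyocyte libraries, with the mean and SD of each group beside its points (n = 5). The lists were chosen from the low- and high-dose libraries at 9 h. At 24 h the high-dose libraries are again apart from the other groups in both lists, and library MS-174 lies within the vehicle range in the higher list (14508 CPM) and above it in the lower list (51402 CPM).

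Each dose was also compared with vehicle at 9 h. These comparisons share libraries with the one between the doses, so their values are given side by side. The low dose gave 414 DEGs among 17162 transcripts (2.41%), 219 higher (1.28%) and 195 lower (1.14%) than vehicle, and 775 of 17605 without MS-158 (4.4%). The high dose gave 2257 among 17871 (12.6%), 1112 higher (6.22%) and 1145 lower (6.41%). Of the 10 largest increases between the doses, ENSRNOT00000013073 had log2 fold changes against vehicle of 2.01 ± 0.24 (low dose) and 5.33 ± 0.10 (high dose), and ENSRNOT00000066509 of 2.87 ± 0.68 and 5.55 ± 0.26. All but ENSRNOT00000005228 of the 10 were DEGs at both doses. That transcript had a log2 fold change of 0.63 ± 0.19 at the low dose (edgeR adjusted p = 0.088) and 3.04 ± 0.09 at the high dose.

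Of the 10 largest decreases, 3 were DEGs against vehicle at the low dose and 7 were not. All 10 were chosen for a large fall from these same low-dose libraries, which favours high values in them. The p-values of low dose against vehicle are therefore a description. ENSRNOT00000018447, ENSRNOT00000014229 and ENSRNOT00000017948 were higher than vehicle at the low dose, by 0.88 ± 0.12, 0.85 ± 0.15 and 0.87 ± 0.16 on the log2 scale (edgeR adjusted p = 0.0027, 0.011 and 0.012). At the high dose they were lower than vehicle, with log2 fold changes of -2.62 ± 0.59, -1.46 ± 0.07 and -1.39 ± 0.13. The other 7 were not DEGs at the low dose, with log2 fold changes from -0.07 to 0.47, and from -1.75 to -2.27 at the high dose. The same 3 and no other of the 10 were DEGs at the low dose without MS-158.

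Measured over all transcripts, the high-dose libraries lay slightly farther from vehicle than the low-dose libraries other than MS-158. The mean absolute difference in log2 CPM from the vehicle mean, over 18846 transcripts, was 0.413, 0.427, 0.458, 0.481 and 0.464 in the high-dose libraries. It was 0.321, 0.4202, 1.27, 0.362 and 0.354 in the low-dose libraries, and each vehicle library lay at 0.279 to 0.328 from the other 4. With MS-158 the mean was not higher at the high dose (difference -0.0969, p = 0.992 in an exact two-sided permutation test over 252 splits). Without it the difference was 0.0844 (exact permutation p = 0.0317, 0.0794 after Benjamini-Hochberg adjustment over the 5 library measures), and 4 of the 5 high-dose libraries were above all 4 low-dose libraries. The smallest p these designs allow is 0.00794 with all libraries and 0.0159 without MS-158. The share of estimated counts on transcripts was 93.6% at the high and 91.95% at the low dose on average (exact permutation p = 0.0397, adjusted 0.0992). The 100 most abundant transcripts took 23.9% and 29.5% of transcript counts (exact permutation p = 0.00794, adjusted 0.0397), and 23.9% and 25.4% without MS-158 (exact permutation p = 0.0159, adjusted 0.0794). The number of transcripts detected did not differ beyond the spread (23570 against 22700, exact permutation p = 0.532).

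The comparison was repeated at 24 h in separate libraries. There, 964 of 17098 transcripts were DEGs between the doses (5.64%), 361 higher (2.11%) and 603 lower (3.53%). Of these, 535 were DEGs at 9 h in the same direction, 191 higher and 344 lower, and 0 were DEGs in opposite directions. They make up 37.8% of the 9 h list and 55.5% of the 24 h list. Of the 1330 DEGs of 9 h that were tested at 24 h, 96.4% had a fold change of the same sign, against 77.6% of all transcripts tested at both times. Their median log2 fold change at 24 h was 0.75 for those higher and -0.86 for those lower at 9 h, beside 0.00 over all transcripts. Across the 17005 transcripts tested at both times, the Pearson correlation of the fold changes was 0.72. The likeness over all transcripts was smaller without MS-158, while the number of shared DEGs was nearly the same. Without MS-158, 537 DEGs were shared (25.8% and 55.7% of the lists) and 2 were opposite. Of the 9 h DEGs 88.5% had the same sign at 24 h, against 65.7% of all transcripts, and the correlation was 0.47. Without MS-158, MS-172 and MS-178, 1686 transcripts were DEGs at 24 h (9.75%), 887 were shared (42.7% and 52.6% of the lists), 5 were opposite, 92.5% had the same sign, against 71.5%, and the correlation was 0.59. Without MS-174, the 24 h comparison gave 631 DEGs (3.64%), and 401 were shared with 9 h (28.4% and 63.5%). There, 0 were opposite, 95.6% had the same sign, against 76.7%, and the correlation was 0.70. With all 4 libraries left out, 1364 were DEGs at 24 h (7.75%) and 793 were shared (38.2% and 58.1%). In that setting 3 were opposite, 92.2% had the same sign, against 72.1%, and the correlation was 0.54. Points in these correlations are transcripts that share the same libraries.

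**Figure D5:**
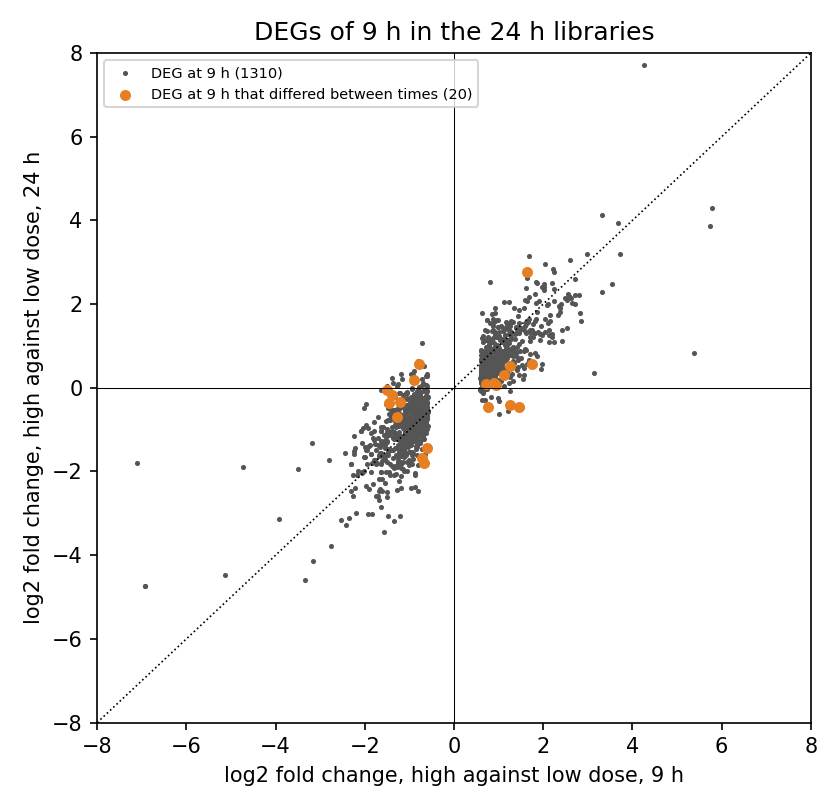
Each point is 1 of the 1330 DEGs of 9 h that were also tested at 24 h, with its log2 fold change between the doses at 9 h (horizontal) and at 24 h (vertical). The dotted line marks equal change. Most points lie in the quadrants of equal sign, and 20 transcripts (orange) differed between the times in the test of the difference.

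Of the 10 largest increases of 9 h, 7 were DEGs at 24 h. ENSRNOT00000013133 and ENSRNOT00000013073 had log2 fold changes of 2.49 ± 0.61 and 2.30 ± 0.50 there. The low-dose library MS-174 held 0.231 and 25.2 CPM of these, against 6.49 to 11.3 CPM and 207 to 270 CPM in the other 4, and without it the log2 fold changes were 2.17 ± 0.17 and 2.01 ± 0.14. ENSRNOT00000018549, ENSRNOT00000032185 and ENSRNOT00000044944 were not DEGs at 24 h, with log2 fold changes of 1.60 ± 0.63, 2.20 ± 0.62 and 2.24 ± 0.62 (edgeR adjusted p = 0.14, 0.055 and 0.051). In the first, MS-172 and MS-174 held 1.21 and 1.90 CPM, against 15.0 to 23.1 CPM in the other low-dose libraries and 32.5 to 44.0 CPM at the high dose. Without MS-174 the first was still no DEG (1.33 ± 0.54, edgeR adjusted p = 0.20), and without MS-172, MS-174 and MS-178 it was one, at 0.90 ± 0.14 (edgeR adjusted p = 0.0040). The other 2 were DEGs once MS-174 was left out, at 1.88 ± 0.27 and 1.93 ± 0.16. All 10 largest decreases were DEGs at 24 h, between -1.16 and -2.46, and ENSRNOT00000018447 lost its call without MS-174 (log2 fold change -1.91 ± 0.49, edgeR adjusted p = 0.059). ENSRNOT00000018447 was at 530 ± 9.43 CPM in the vehicle libraries at 24 h, 477 ± 28.4 CPM at the low and 127.1 ± 91.2 CPM at the high dose (SD, n = 5).

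The test of the difference between times called 51 of 18831 transcripts (0.271%), 26 with a more positive (0.138%) and 25 with a more negative difference (0.133%) at 24 h, and 1348 had an unadjusted p under 0.05 (7.16%). The count depended on the libraries and on the method, and was 235 with DESeq2 (1.25%). Without MS-158 it was 0.626% of 19320, and without MS-165 it was 33. It was 383 without MS-158, MS-172 and MS-178 (49 of the 51 among them) and 439 with MS-174 left out as well (47 of the 51 among them). ENSRNOT00000003778 (926 bases, whole counts in all 10 libraries at 9 h) was at 18.1 to 38.0 CPM at the low and 69.5 to 91.8 CPM at the high dose at 9 h. At 24 h it was at 18.7 to 34.2 CPM and 19.7 to 24.7 CPM, and only MS-174, at 18.7 CPM, was not above the high-dose libraries, while the other 4 low-dose libraries were at 28.9 CPM or more. Its log2 fold change at 24 h was -0.45 ± 0.16 (edgeR adjusted p = 0.11), and -0.58 ± 0.10 without MS-174 (edgeR adjusted p = 0.014), under the fold required of a DEG. Its log2 fold change at 24 h minus that at 9 h was -1.89 ± 0.26 (edgeR adjusted p = 0.0021). ENSRNOT00000012963 was likewise higher at the high dose at 9 h (79.04 to 146.96 CPM against 60.27 to 70.09) and lower at 24 h (44.6 to 60.8 CPM against 64.04 to 78.35), with a difference of -1.19 ± 0.20. Its log2 fold change at 24 h was -0.46 ± 0.10 (edgeR adjusted p = 0.024), under the fold required of a DEG. ENSRNOT00000028883 was lower at the high dose at 9 h, at 4.85 to 9.27 CPM against 17.2 to 19.4. At 24 h the doses overlapped, at 8.02 to 12.3 and 5.13 to 12.4 CPM, and the difference of 1.46 ± 0.30 (edgeR adjusted p = 0.035) kept its call in 12 of 26 alternatives.

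The transcripts named between times had the largest differences among those whose mean log2 CPM was 3 or more. The remaining 3 differed mainly at 24 h. ENSRNOT00000007577 was at 193 to 242 CPM at the high and 239 to 341 CPM at the low dose at 9 h, and at 142.9 to 171.1 and 450 to 879 CPM at 24 h (difference -1.64 ± 0.21). ENSRNOT00000088355 was at 32.2 to 44.6 and 22.6 to 36.1 CPM at 9 h, and at 101.97 to 170.9 and 28.6 to 39.4 CPM at 24 h (difference 1.46 ± 0.23). At 9 h it was a DEG without MS-158 (log2 fold change 0.63) and not with all libraries. ENSRNOT00000081893 was at 8.32 to 9.59 and 6.17 to 9.67 CPM at 9 h, and at 15.5 to 20.04 and 4.23 to 8.69 CPM at 24 h (difference 1.37 ± 0.22). At 9 h this last transcript was lower than vehicle at both doses (17.4 ± 1.59 CPM, SD, n = 5) with no gap between them.

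The same comparison was made at 9 h in the other cell types, between their own low and high doses, which differ from those of the cardiomyocytes, so the values are side by side. In renal cells, 2249 of 17641 transcripts were DEGs between the doses (12.7%), and 322 of the cardiomyocyte DEGs were among them in the same direction and 49 in the opposite direction. The 322 make up 22.8% of the cardiomyocyte and 14.3% of the renal list. Of 1146 cardiomyocyte DEGs tested in renal cells, 73.6% had the same sign, against 59.9% of all transcripts tested in both. In hepatocytes, 1256 of 16636 were DEGs (7.55%), with 87 shared in the same and 48 in the opposite direction (6.15% and 6.93% of the lists for the first). Of 917 tested there, 54.1% had the same sign, against 52.99% of all transcripts. With the cardiomyocyte DEGs called without MS-158, 406 were shared with renal cells in the same and 80 in the opposite direction (19.5% and 18.1% of the lists for the first), and 70.7% of 1625 had the same sign, against 62.3%. With hepatocytes 5.58% of the cardiomyocyte and 9.24% of the hepatocyte list were shared in the same direction, 88 were opposite, and 54.07% of 1302 had the same sign, against 54.3%.

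Of the 10 largest increases, 7 were also DEGs higher at the high dose in renal cells. Among these, ENSRNOT00000013133, ENSRNOT00000013073 and ENSRNOT00000032185 had log2 fold changes of 2.41 ± 0.20, 2.12 ± 0.04 and 2.17 ± 0.26. In hepatocytes the same 3 were at 0.02 ± 0.09, -0.06 ± 0.06 and 0.19 ± 0.14, none of them DEGs. ENSRNOT00000013661 had a log2 fold change of 2.38 in cardiomyocytes and of 0.11 ± 0.15 in renal cells (edgeR adjusted p = 0.60). Of the 10 largest decreases, 8 were tested in renal cells and 7 of these were DEGs lower there. ENSRNOT00000023554 fell in renal cells, with a log2 fold change of -1.30 ± 0.04, and was at 0.09 ± 0.08 in hepatocytes. ENSRNOT00000009233 fell in renal cells (-0.74) and rose in hepatocytes (0.84 ± 0.04). ENSRNOT00000014229 and ENSRNOT00000017948 did not pass the filter on low counts in either of the other cell types. The difference between cell types was not tested.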

How the data were processed

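RNA was measured as poly-A-enriched libraries. The authors quantified reads with kallisto 0.42.4 (per the labels) against the Rnor_6.0 transcriptome, and deposited per library an estimated count and a TPM for each of 65166 targets, of which 40071 are transcripts and 25095 are genomic intervals. Only transcripts were used, unless stated. The intervals are not described in the sources used here. Groups came from the labels. The replicate numbers are library numbers, and 0 of 435 pairs of cardiomyocyte libraries were identical.

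Estimated counts were rounded and tested with edgeR 4.0.16 under R 4.3.3 (quasi-likelihood test after filterByExpr and TMM), each pair of groups in a fit of its own, and the difference between times in a fit of 4 groups. The SE is the size of the log2 fold change divided by the square root of F. Alternatives used DESeq2 1.42.0, limma 3.58.1, other filters and normalization, and each library left out. Library measures were tested with exact permutation tests. Functions were tested on simulated data. Counting error is larger in transcripts of low counts and was not separated from the spread between libraries.

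Named transcripts are the 10 DEGs with the largest increase and the 10 with the largest decrease (mean log2 CPM of at least 3, doses not overlapping), the 5 most abundant DEGs in each direction, and, between times and among intervals, the 3 with the largest change in each direction under the same abundance limit. The order, sums and overlaps of the DEGs called without MS-158 were added after the data were seen. Members, lists and rules were chosen with earlier results of these data known. The lists of marker and stress genes in the plan could not be matched and gave no result. The deposited files hold no result of the authors' own tests, which used Sleuth.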

Additional observations from a re-analysis of the deposited data

Results flagged for a closer look

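In 70 sets of 5 values, 9 had 1 library farther from the others than Dixon's 95% limit allows. A set was 1 measure or transcript over the libraries of 1 dose. Chance gives about 1 in 20, or 3.5, for independent sets. These sets reuse the same libraries and are not independent, and the 9 came from MS-158 and MS-156 alone. Low-dose library MS-158 stood apart with 19177 transcripts detected, with 46.0% of transcript counts in the 100 most abundant transcripts, and with a distance of 1.27 (log2 CPM) from the vehicle mean. It also stood apart in ENSRNOT00000022389 (225 CPM), ENSRNOT00000012883 (228 CPM) and ENSRNOT00000081355 (2006 CPM), where it was the highest of the low-dose libraries. Low-dose library MS-156 stood apart in ENSRNOT00000013073, where it was lowest at 67.1 CPM, and in ENSRNOT00000018447 (119.1 CPM) and ENSRNOT00000077924 (2114 CPM), where it was highest.

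The difference between the doses differed between 24 h and 9 h in 51 transcripts by the test of the difference itself (edgeR). Among those whose mean log2 CPM was 3 or more, the largest were ENSRNOT00000028883, ENSRNOT00000088355 and ENSRNOT00000081893, more positive at 24 h by 1.46, 1.46 and 1.37 on the log2 scale, and ENSRNOT00000003778, ENSRNOT00000007577 and ENSRNOT00000012963, with differences of -1.89, -1.64 and -1.19.

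The genomic intervals, which the comparisons of transcripts leave out, also differed between the doses. By the same test 307 of 8884 did (3.46%) and 702 of 9380 without MS-158 (7.48%). It was 1.47%, 1.53%, 1.72% and 2.09% of those tested without MS-165, MS-164, MS-163 and MS-156, 2.14% with the scaling of the transcripts, and 5.46% with DESeq2.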

How the results depend on the processing

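Named transcripts kept their direction and call in 749 of 796 alternative values and lost the call in 47, with 0 reversed. The 47 were mainly ENSRNOT00000028883 (14), ENSRNOT00000081355 (12) and ENSRNOT00000077924 (10). The 1414 DEGs became 2555 with no fold-change threshold, 686 with a fold change of at least 2 and 691 with limma on log2(TPM + 1). With only transcripts of whole counts, an alternative chosen after the data were seen, they were 798. The first 2 and the last follow from the thresholds and from fewer transcripts tested, and the cause of the third was not tested. As percentages of the transcripts tested in each fit, 3.26% higher and 4.43% lower became 6.60% and 7.30% with no fold-change threshold, 1.61% and 2.12% with a fold change of at least 2, 4.56% and 6.24% (337 and 461 of 7383) with whole counts, and the lower DEGs 0.865% with limma on TPM. With all 6 groups in one fit 34.8% of 1610 DEGs were higher, against 42.4%. Leaving out each library gave 1022 (without MS-164) to 2078 (without MS-158) DEGs, 2.38% to 4.7% higher and 3.1% to 6.44% lower. The mean absolute log2 fold change of 0.40 became 0.77 with no filter, 0.43 with a filter of 5 counts in 47% of libraries, 0.32 and 0.33 with limma on CPM and TPM, 0.46 with all 6 groups, 0.34 with whole counts and 0.27 with library weights (the last 2 chosen after the data were seen), and 0.34 to 0.44 with each library left out.

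Of the 18831 transcripts tested between times, 0.271% were called. This became 1.25% with DESeq2, 0.117% with a fold change of at least 2, 0.171% (without MS-177) to 0.626% (without MS-158) of those tested with each library left out, 0.175% without MS-165 and 0.44% without MS-172. Without MS-158, MS-172 and MS-178 it was 1.99%, and 2.25% with MS-174 left out as well, both chosen after the data were seen. The 535 DEGs shared with 24 h became 887 without the first 3. The distance from vehicle (high minus low) ranged from -0.15 to 0.0840 and reversed without MS-158 (exact permutation p = 0.0317, transcripts filtered again). The difference in detected transcripts ranged from -10.5 without MS-158 to 1254 without MS-156 (exact permutation p = 0.0476). The difference in transcript share ranged from 1.25 to 2.13 percentage points and missed the threshold in 9 of 10. Of the 8884 intervals, 3.46% were called. This became 2.14% with the scaling of the transcripts, 5.46% with DESeq2, and 1.47% to 7.48% with each library left out, the highest without MS-158 and the lowest without MS-165 (2.09%, 1.72% and 1.53% without MS-156, MS-163 and MS-164). No paired analysis was possible because the library numbers are not shared between groups.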

Other observations

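The genomic intervals named by the rule are given on Rnor_6.0 by position only, since no annotation of that build was used. The interval on chromosome 8 from 100191733 to 100211732 was the most abundant of them. It held 70.2, 175.3, 281.6, 180.4 and 160.9 CPM (per 1000000 interval counts) in the low-dose libraries and 1135, 1417, 1517, 1699 and 1578 CPM in the high-dose libraries, against 40.3 ± 8.40 CPM in vehicle (SD, n = 5). Its log2 fold change was 2.88 ± 0.37 (edgeR adjusted p = 0.0017). The other named intervals that rose were on chromosome 16 from 71033291 to 71035703 (3.16 ± 0.19) and on chromosome 13 from 101976571 to 101996570 (3.33 ± 0.26). The named intervals that fell were on chromosome 4 from 156438000 to 156457999 (-2.83 ± 0.65, and -1.87 without MS-158, in which it was at 83.8 CPM against 14.3 to 26.8), on chromosome 3 from 41666547 to 41686546 (-2.26 ± 0.36) and on chromosome 9 from 97846083 to 97866082 (-2.19 ± 0.19). Scaled by the counts of the transcripts instead of their own, 199 intervals were called in place of 307, 48.7% of them higher in place of 56.0%, and the median log2 fold change of all intervals was -0.18 in place of -0.03.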
